A study of Homo sapiens with 10 samples.

Results

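The genes described here are the 9 that write, copy and remove DNA methylation: the DNA methyltransferases DNMT1, DNMT3A, DNMT3B and DNMT3L, the dioxygenases TET1, TET2 and TET3, the maintenance cofactor UHRF1 and the glycosylase TDG. They were chosen by symbol, and all 9 were found among the 32152 genes of the count table. Their mRNA was measured by polyA RNA-seq in a human embryonic stem cell line, WAe009-A (H9), in 5 libraries of cells carrying a homozygous disruption of KCNH2 (KCNH2-/-, called knockout here) and 5 libraries of isogenic cells, wild type (WT) at that gene. The product of KCNH2 is hERG1, the pore subunit of a potassium channel, and the series asks which transcripts depend on it in undifferentiated cells. Knockout cells were grown in mTeSR Plus and WT cells in TeSR-E8, both on Matrigel, so that genotype and medium cannot be told apart in any comparison below. The genotype field of the labels says knockdown where the titles and the growth protocol say knockout. The labels do not say whether the knockout line is 1 clone. Nothing in the labels says that the libraries of a group came from separate cultures, and the p-values then measure only the spread between these libraries, which may be technical.

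Methyl groups on cytosine are set mainly at CpG dinucleotides. DNMT3A and DNMT3B place them on unmethylated DNA, with DNMT3L as a catalytically inactive partner. DNMT1 copies them to the new strand after replication, brought to hemimethylated CpG by UHRF1. The TET enzymes oxidise methylcytosine using 2-oxoglutarate and oxygen, and TDG cuts out the more oxidised bases so that base excision repair can restore cytosine. Human pluripotent cells are known for high de novo methyltransferase mRNA and for TET1 as their main TET gene.

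Library totals were 29788732 to 40587206 counts in knockout cells and 28615751 to 47319933 counts in WT cells. KCNH2 itself had 12.2 ± 1.001 counts per 1e6 counts (CPM) in knockout libraries and 15.5 ± 0.754 CPM in WT libraries (SD, n = 5 each), a log2 fold change of -0.35 (edgeR quasi-likelihood test, adjusted p = 0.000648). Since no label gives where in KCNH2 the cells were edited, its level checks the labels only in part. The labelled cell type was checked on a list of 8 pluripotency markers, all of them present, with summed levels of 7497 to 7969 CPM in knockout libraries and 6791 to 7021 CPM in WT libraries, and 5 were higher and 0 lower in knockout cells. After the correction for transcript length and GC content described below, 3 were higher and 1 lower. Among all 19163 tested genes 21.9% were higher and 24.1% lower before the correction. Of 12 listed markers of differentiated cells 10 were in the table, and 7 of these were too low to test, at no more than 0.269 CPM in any library. The summed level of the differentiation list was 73.4 to 84.4 CPM in knockout libraries and 111 to 116 CPM in WT libraries, most of it from the collagen gene COL1A1, with 2 of 3 tested genes lower and 0 higher, and the part of this difference in the results below was not tested.

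Promoter windows, from 250 bases before to 50 bases after a RefSeq start (GRCh38.p14), were at hand for 8 of the 9 genes, DNMT3L being the one without. UHRF1 and DNMT1, the maintenance pair, are shown first because they were the only genes of the 8 with a match to TTTNNCGC, a loosened form of the site read by the E2F factors of the cell cycle, searched on both strands. The motif is present in 6.89% of 35116 promoter windows of the same length, and in 3 of the 19 windows of the 8 genes. Capitals mark the matches, of which the UHRF1 window chr19:4909251-4909550 on the plus strand has 2 and the DNMT1 window chr19:10194904-10195203 on the minus strand has 1. A second of 3 UHRF1 windows also held a match. Both windows shown belong to RefSeq starts inside the GENCODE genes, downstream of the annotated starts at 4903080 (UHRF1) and 10231286 (DNMT1). A match is a string of letters and no evidence of binding.
UHRF1: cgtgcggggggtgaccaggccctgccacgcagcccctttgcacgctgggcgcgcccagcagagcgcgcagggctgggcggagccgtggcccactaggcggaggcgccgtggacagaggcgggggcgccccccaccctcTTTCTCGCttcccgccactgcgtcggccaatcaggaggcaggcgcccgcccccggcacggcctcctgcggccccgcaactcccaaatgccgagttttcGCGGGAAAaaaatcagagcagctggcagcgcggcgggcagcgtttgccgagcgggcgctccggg
DNMT1: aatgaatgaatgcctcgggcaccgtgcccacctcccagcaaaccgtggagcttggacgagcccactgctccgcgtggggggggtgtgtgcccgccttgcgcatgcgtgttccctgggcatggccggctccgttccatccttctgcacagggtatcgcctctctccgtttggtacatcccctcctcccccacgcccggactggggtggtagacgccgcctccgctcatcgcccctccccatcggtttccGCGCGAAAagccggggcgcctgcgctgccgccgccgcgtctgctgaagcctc

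DNMT3B and TET1 are shown because they are the member with the highest mRNA level and the member with the largest fall. CpG, the dinucleotide that the whole set acts on, is in capitals. The DNMT3B window belongs to a RefSeq start that lies inside the GENCODE gene, downstream of the annotated start at 32762385. No window at that annotated start was at hand, so its CpG content is not given. The DNMT3B window chr20:32779602-32779901 on the plus strand holds 3 CpG and the TET1 window chr10:68560087-68560386 on the plus strand holds 10, against a median of 14 over all windows. The other windows of TET1 hold 6 and 11. The windows shown for UHRF1 and DNMT1 hold 36 and 30, the window of TDG holds 22, the windows of TET3 hold 33 and 45, the windows of TET2 hold 13 and 35, and the 6 windows of DNMT3A hold 18 to 46.
DNMT3B: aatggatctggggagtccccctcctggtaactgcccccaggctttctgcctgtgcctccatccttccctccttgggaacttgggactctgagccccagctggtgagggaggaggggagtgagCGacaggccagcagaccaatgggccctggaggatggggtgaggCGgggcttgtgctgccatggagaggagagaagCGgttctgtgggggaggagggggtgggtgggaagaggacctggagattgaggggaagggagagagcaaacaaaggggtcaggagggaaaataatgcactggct
TET1: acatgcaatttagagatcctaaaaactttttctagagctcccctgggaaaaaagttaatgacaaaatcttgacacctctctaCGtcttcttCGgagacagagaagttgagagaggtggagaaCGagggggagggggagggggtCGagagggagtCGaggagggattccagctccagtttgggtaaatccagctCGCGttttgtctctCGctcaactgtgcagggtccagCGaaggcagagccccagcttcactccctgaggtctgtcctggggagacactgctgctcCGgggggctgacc

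Of the 9 genes, TET1, DNMT3A and TET3 had lower mRNA in knockout cells, TDG had higher mRNA, and DNMT1, DNMT3B, TET2 and UHRF1 did not pass the test. DNMT3L was too low to be tested. In bulk RNA, fewer cells that express a gene and less of its RNA per cell cannot be told apart. The count of 4 genes out of 8 tested stands against a background in which 46.0% of the 19163 tested genes passed the same test (edgeR quasi-likelihood, Benjamini-Hochberg adjusted p under 0.05), 21.9% higher and 24.1% lower in knockout cells, so that the share of these genes that changed is near that of all genes. The median log2 fold change of the 8 was -0.13, and that of all tested genes was 0.00. Knockout and WT libraries did not overlap for TET1, DNMT3A and TET3, which compares with 34.0% of all tested genes.

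**Figure D1:**
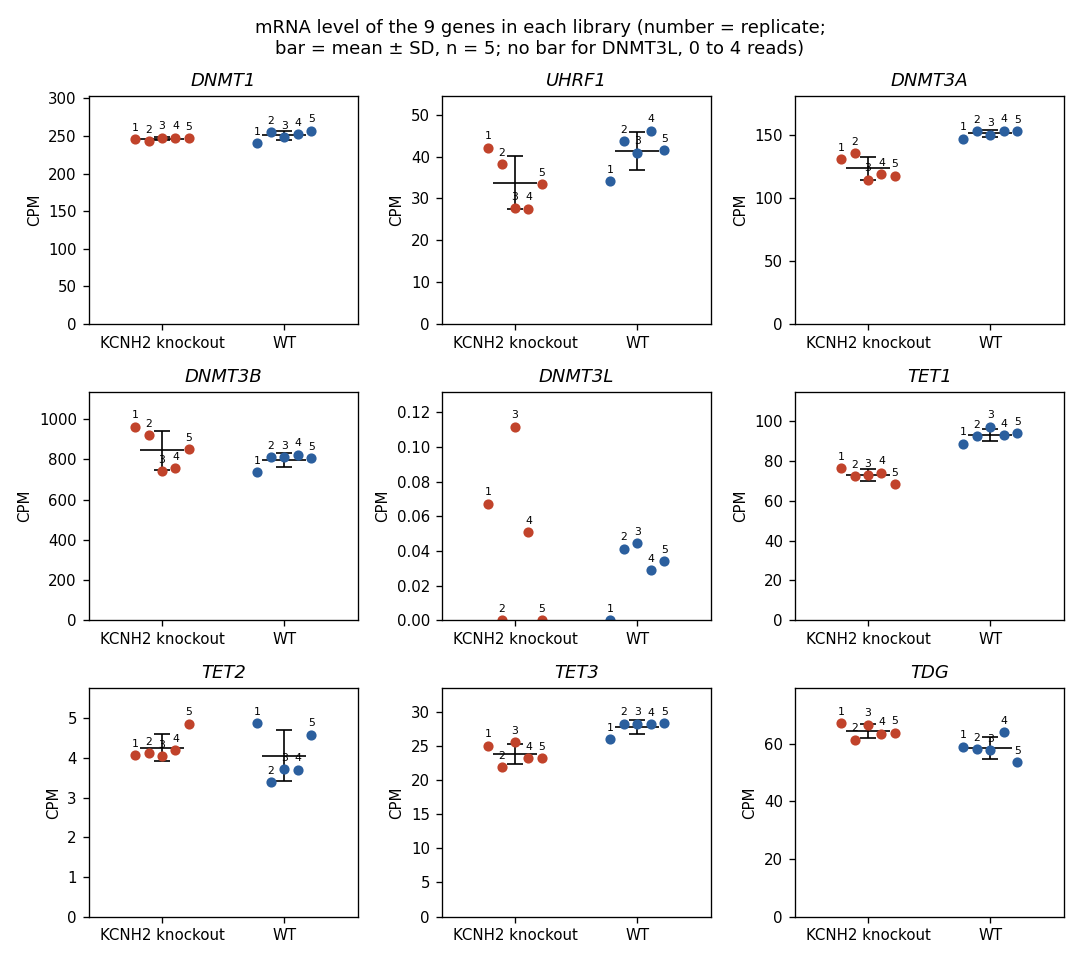
Normalised level of each of the 9 genes in each library, in CPM on linear axes that start at 0, with 5 knockout libraries on the left and 5 WT libraries on the right of each panel. Points carry the replicate number and bars give the mean and SD (none for DNMT3L, which had 0 to 4 reads a library). Knockout points of TET1, DNMT3A and TET3 lie below all WT points, and knockout points of UHRF1 and DNMT3B are spread more widely than those of DNMT1.

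The de novo enzymes did not move together. DNMT3A (ENSG00000119772, chr2:25227855-25342590, minus strand, GRCh38) fell. It was at 131, 136, 115, 119 and 118 CPM in knockout libraries 1 to 5, against 147, 153, 150.3, 154 and 153 CPM in WT libraries 1 to 5. All 5 knockout libraries were below all WT libraries, with a mean of 124 ± 9.24 CPM in knockout cells and 152 ± 2.73 CPM in WT cells (SD, n = 5 each). The log2 fold change was -0.29 with a standard error of 0.04 (edgeR, adjusted p = 0.000243), which left 81.5% of the WT mean. The call was lost after a correction for transcript length and GC content given below.

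DNMT3B (ENSG00000088305, chr20:32762385-32809356, plus strand), the de novo enzyme best known from early development, did not pass the test. Its level was 963, 919.9, 742, 756 and 853 CPM in knockout libraries 1 to 5, against 738, 811, 813, 824 and 805 CPM in WT libraries 1 to 5. Knockout libraries 1, 2 and 5 were above every WT library, whereas knockout libraries 3 and 4 were below all but WT library 1. The means were 847 ± 97.4 CPM in knockout cells and 798 ± 34.6 CPM in WT cells, and the log2 fold change was 0.08 with a standard error of 0.07 (edgeR, adjusted p = 0.338). The coefficient of variation was 11.5% among knockout libraries and 4.34% among WT libraries.

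With DNMT3A lower, the ratio of DNMT3B to DNMT3A mRNA, each per kb of transcript, was 16.1, 14.9, 14.2, 13.9 and 15.9 in knockout libraries 1 to 5, against 10.97, 11.6, 11.9, 11.8 and 11.5 in WT libraries 1 to 5. The groups did not overlap. The ratio averaged 15.0 ± 0.961 in knockout cells and 11.5 ± 0.344 in WT cells (SD, n = 5 each) and is given as a description without a test. Its difference between groups carries no correction for the trend of fold change with transcript length. After the correction for transcript length and GC content given below, DNMT3B was at 0.17 and DNMT3A at -0.10, neither of them called.

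DNMT3L (ENSG00000142182, chr21:44246339-44262216, minus strand) was close to absent. Its counts were 2, 0, 4, 2 and 0 in knockout libraries 1 to 5, against 0, 2, 2, 1 and 1 in WT libraries 1 to 5, a total of 8 in knockout cells and 6 in WT cells. Only 1 library exceeded the 3 counts that a count of 0 allows, which is 0.0634 to 0.105 CPM at these depths and covers counting error only. No fold change is given. DNMT3L shares exonic sequence with an antisense transcript, and the labels do not say whether counting used strand.

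The maintenance pair differed in how even it was. DNMT1 (ENSG00000130816, chr19:10133345-10231286, minus strand) was at 246, 243, 248, 248 and 247 CPM in knockout libraries 1 to 5, against 241, 255, 248, 252 and 257 CPM in WT libraries 1 to 5. The knockout libraries lay within the WT range, and the log2 fold change was -0.03 with a standard error of 0.02 (edgeR, adjusted p = 0.380). With a coefficient of variation of 0.88% among knockout libraries and 2.59% among WT libraries, DNMT1 was the steadiest of the 9 genes in knockout cells. Exons of DNMT1 overlap those of S1PR2 on the same strand, so that some reads could belong to either gene.

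UHRF1 (ENSG00000276043, chr19:4903080-4962154, plus strand) was at 42.1, 38.2, 27.7, 27.5 and 33.4 CPM in knockout libraries 1 to 5, against 34.2, 43.6, 40.9, 46.2 and 41.6 CPM in WT libraries 1 to 5. Knockout libraries 3, 4 and 5 were below every WT library, while knockout libraries 1 and 2 lay within the WT range. Means were 33.8 ± 6.43 CPM in knockout cells and 41.3 ± 4.50 CPM in WT cells, and the log2 fold change of -0.29 with a standard error of 0.12 did not pass the test (edgeR, adjusted p = 0.0667). Without knockout replicate 1 UHRF1 passed it at -0.37 (adjusted p = 0.0150), and without WT replicate 1 at -0.35 (adjusted p = 0.0341). The DESeq2 Wald test called it lower, at -0.28 (adjusted p = 0.0372). The authors' deposited table gives an adjusted p of 0.0416, with NO in its call column.

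DNMT3B and UHRF1, a de novo and a maintenance gene, were lowest in the same knockout libraries, 3 and 4, and highest in knockout libraries 1 and 2. That order was not particular to them. SOX2, GINS2 and RRM2, listed genes named after their values were seen, had it too, with SOX2 at 319, 308, 258, 251 and 291 CPM in knockout libraries 1 to 5. Other listed genes, such as MCM3, did not. The ratio of DNMT1 to UHRF1 mRNA per kb of transcript was 3.48 and 3.80 in knockout libraries 1 and 2, 5.35 and 5.38 in knockout libraries 3 and 4, and 4.41 in knockout library 5, against 3.26 to 4.21 in WT libraries. Of 15 listed genes of S phase, 7 were higher and 0 lower in knockout cells (8 higher and 1 lower after the length and GC correction), with a median log2 fold change of 0.08, among them PCNA, the replication clamp, at 291 ± 3.53 CPM in knockout libraries and 240.2 ± 10.3 CPM in WT libraries (0.28, edgeR, adjusted p = 2.2e-05, and 0.11 after the correction). Among all tested genes 21.9% were higher and 24.1% lower. The S phase list's mean centred log2 CPM was 0.06 to 0.16 in knockout libraries and -0.08 to 0.06 in WT libraries. Its part in the UHRF1 and DNMT1 values was not tested.

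**Figure D2:**
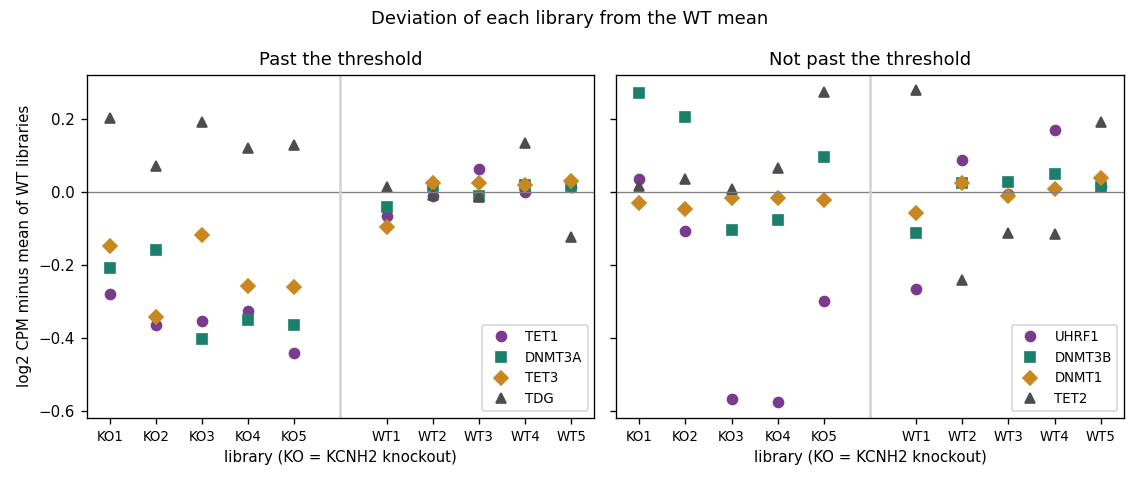
Log2 CPM of each library minus the mean of the 5 WT libraries, for the 4 genes that passed the test on the left and the 4 that did not on the right. In each panel knockout libraries stand left of WT libraries. UHRF1 and DNMT3B are low together in knockout libraries 3 and 4, while TET1 and DNMT3A are below the WT mean in all 5 knockout libraries.

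The TET genes fell in part. TET1 (ENSG00000138336, chr10:68560656-68694482, plus strand) was at 76.6, 72.3, 72.8, 74.1 and 68.6 CPM in knockout libraries 1 to 5, against 88.8, 92.4, 97.3, 93.0 and 94.0 CPM in WT libraries 1 to 5. The 2 groups were far apart for their spread. Means were 72.9 ± 2.94 CPM in knockout cells and 93.1 ± 3.03 CPM in WT cells (SD, n = 5 each), and the log2 fold change was -0.35 with a standard error of 0.03 (edgeR, adjusted p = 8.97e-06), leaving 78.3% of the WT mean. TET1 was called lower in all 20 other fits run, 10 of them leaving out a library, with log2 fold changes of -0.37 to -0.24.

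TET3 (ENSG00000187605, chr2:73986404-74108176, plus strand) was at 25.1, 21.9, 25.6, 23.3 and 23.2 CPM in knockout libraries 1 to 5, against 25.98, 28.3, 28.3, 28.2 and 28.4 CPM in WT libraries 1 to 5. The groups did not overlap, but WT library 1 was close to the highest knockout library. Its log2 fold change was -0.23 with a standard error of 0.05 (edgeR, adjusted p = 0.00212). After the correction for transcript length and GC content given below, TET3 was at -0.01 and no longer called.

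TET2 (ENSG00000168769, chr4:105145875-105279816, plus strand), a TET gene better known from blood cells, was low and did not pass the test. It was at 4.07, 4.12, 4.04, 4.20 and 4.87 CPM in knockout libraries 1 to 5, against 4.88, 3.39, 3.71, 3.71 and 4.59 CPM in WT libraries 1 to 5, and the groups overlapped. The log2 fold change was 0.07 with a standard error of 0.11 (edgeR, adjusted p = 0.617). The difference between TET1 and TET2 in their fold changes was not tested.

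TDG (ENSG00000139372, chr12:103965804-103988874, plus strand), the glycosylase that cuts out the more oxidised bases, was the 1 member called higher. It was at 67.2, 61.4, 66.7, 63.5 and 63.9 CPM in knockout libraries 1 to 5, against 59.0, 58.1, 57.9, 64.1 and 53.6 CPM in WT libraries 1 to 5. WT library 4 was above 3 of the 5 knockout libraries, so the groups overlapped. Means were 64.5 ± 2.40 CPM in knockout cells and 58.5 ± 3.75 CPM in WT cells (SD, n = 5 each), and the log2 fold change was 0.14 with a standard error of 0.04 (edgeR, adjusted p = 0.0216). Without both replicate 3 libraries the call was lost at 0.12 (adjusted p = 0.0769), and it was lost after the length and GC correction.

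Levels of different genes were compared as CPM per kb of 1 transcript of each gene. DNMT3B led with 195 ± 22.5 CPM per kb in knockout cells and 184 ± 7.99 in WT cells, followed by DNMT1 with 45.5 ± 0.401 in knockout cells and 46.4 ± 1.20 in WT cells. TDG came next with 19.9 ± 0.739 in knockout cells and 18.01 ± 1.15 in WT cells. DNMT3A had 13.01 ± 0.973 in knockout cells and 16.0 ± 0.287 in WT cells, and UHRF1 had 10.5 ± 1.99 in knockout cells and 12.8 ± 1.39 in WT cells. DNMT3A and UHRF1 overlapped in their ranges among knockout libraries, at 12.1 to 14.3 and 8.53 to 13.04, and their ranges did not overlap among WT libraries, at 15.5 to 16.2 and 10.6 to 14.3. The TET genes stood lowest of the genes tested. TET1 had 7.85 ± 0.316 CPM per kb in knockout cells and 10.02 ± 0.326 in WT cells, TET3 had 2.09 ± 0.132 in knockout cells and 2.44 ± 0.0905 in WT cells, and TET2 had 0.419 ± 0.0341 in knockout cells and 0.399 ± 0.0633 in WT cells. The order was the same in both groups. When the union of all exons was used as the length, UHRF1 came after TET1, and DNMT3A came before TDG in WT cells. The ratio of TET1 to TET3 per kb was 3.76 ± 0.220 in knockout cells and 4.10 ± 0.095 in WT cells.

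**Figure D3:**
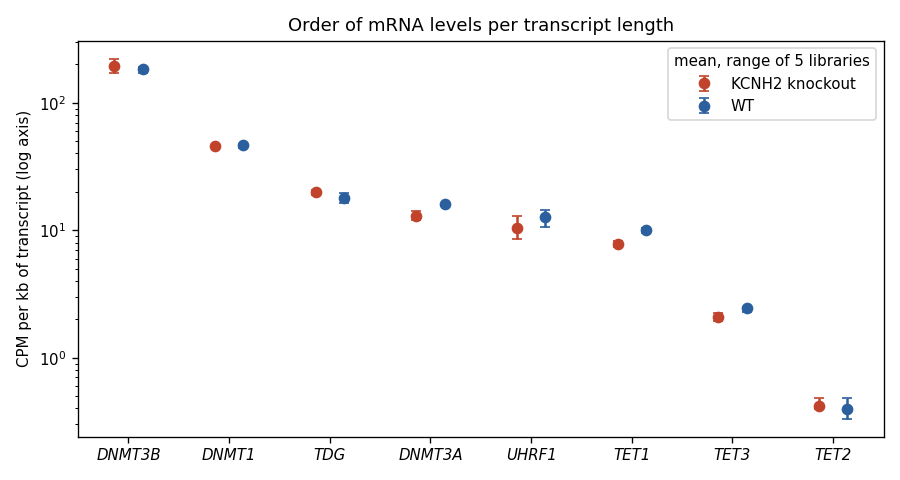
Mean CPM per kb of transcript on a log axis, with bars from the lowest to the highest of 5 libraries, for the 8 genes above the count filter, knockout left of WT for each gene. DNMT3B stands above DNMT1 and the TET genes lie at the right end, with TET2 lowest in both groups.

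Fold changes in this comparison followed transcript length, and the members that fell are encoded by long transcripts. The representative transcripts of DNMT3A, TET1, TET2 and TET3 are 9501, 9288, 10166 and 11388 bases long, and those of DNMT1, DNMT3B, TDG and UHRF1 are 5408, 4336, 3251 and 3230 bases. Among 432 protein-coding genes of 9 to 12 kb with at least 5 CPM, the median log2 fold change was -0.14 and 52.5% were called lower. In the 2022 genes of 1 to 2 kb it was 0.14 and 10.2% were called lower. The source of this trend was not tested. After each library's trend on length and GC content was fitted and removed, 44.4% of 18958 genes passed, and 2 of the 8 members did.

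TET1 remained lower after that correction, at -0.24 (edgeR, adjusted p = 6.6e-05). DNMT3A was at -0.10 (adjusted p = 0.114) and TET3 at -0.01 (adjusted p = 0.852), and TDG was at 0.09 (adjusted p = 0.0848), so that their calls were lost. DNMT1 changed sign to 0.09 and was called higher (adjusted p = 0.00597). UHRF1 was at -0.27 (adjusted p = 0.0899), DNMT3B at 0.17 (adjusted p = 0.0599) and TET2 at 0.22 (adjusted p = 0.139). With exon-union lengths in place of transcript lengths, DNMT3A kept its call at -0.16 (adjusted p = 0.0185), TET1 was at -0.30 (adjusted p = 1.3e-05), DNMT1 was again higher at 0.09 (adjusted p = 0.0103), and TET3 was at -0.08 (adjusted p = 0.152).

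**Figure D4:**
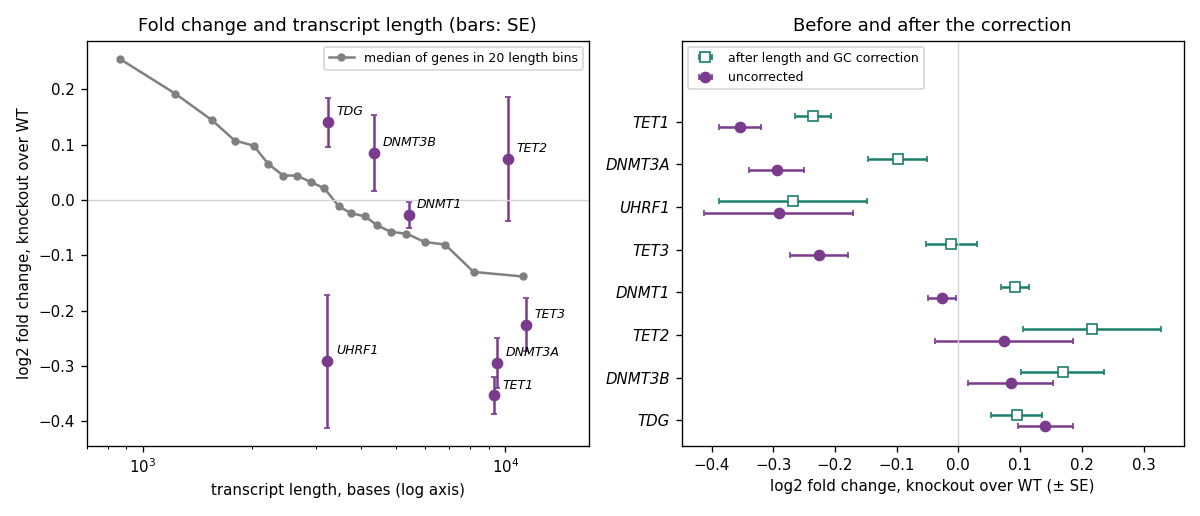
Left, log2 fold change (knockout over WT) against transcript length on a log axis, with the medians of genes in 20 length bins in grey and the 8 tested members with their standard errors. Right, the log2 fold change of each member with its standard error before the correction for length and GC content (filled circles) and after it (open squares). TET1 lies at -0.35 before and -0.24 after the correction, while TET3 lies at -0.23 before and -0.01 after.

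Partners that bring the methyltransferases to DNA or work beside them were mixed: of 13 listed, 1 was higher and 5 were lower in knockout cells, with a median log2 fold change of -0.10 (-0.03 after the length and GC correction, with 1 higher and 5 lower). Of all tested genes 46.0% passed the test, 21.9% higher and 24.1% lower, which is the background for this list and those below. QSER1, a protein known to guard unmethylated regions together with TET1 in human embryonic stem cells, fell alongside it, to 114 ± 5.47 CPM in knockout cells, against 138 ± 4.70 CPM in WT cells (-0.28, edgeR, adjusted p = 8.07e-05). After the length and GC correction QSER1 was at -0.17 (adjusted p = 0.00193). SMCHD1, a chromatin silencer, was at -0.14, and at -0.04 and no longer called after the correction. LIG1, the replicative ligase known to recruit UHRF1, was at -0.15. TRIM28, the corepressor that protects imprinted methylation, was higher at 0.14.

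Base excision repair, the step after TDG, held 9 genes called higher and 4 called lower of 16, with a median log2 fold change of 0.10, and 4 higher and 4 lower after the length and GC correction. XRCC1, the repair scaffold, was at 49.3 ± 1.05 CPM in knockout cells and 43.2 ± 0.797 CPM in WT cells (0.19, adjusted p = 0.000144 by edgeR) and kept that value after the correction. POLB, the gap-filling polymerase, was higher at 0.19 before the correction and at 0.01 after it. The GADD45 genes, stress-induced and proposed as adaptors of TDG, had the largest changes of the list. GADD45G was at 12.9 ± 0.647 CPM in knockout cells and 6.14 ± 0.501 CPM in WT cells (1.07, edgeR, adjusted p = 2.85e-07). GADD45A was uneven, with 25.7, 28.9, 57.1, 44.6 and 38.0 CPM in knockout libraries 1 to 5, against 20.4 to 23.9 CPM in WT libraries (0.84, edgeR, adjusted p = 0.00248).

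Of 14 readers of methylated or unmethylated CpG, 1 was higher and 4 were lower, with a median log2 fold change of -0.04, and 2 were higher and 1 lower after the length and GC correction, with a median of 0.05. ZBTB33, the methyl-CpG binding protein Kaiso, fell to 19.6 ± 1.96 CPM in knockout cells, against 28.4 ± 0.998 CPM in WT cells (-0.54, edgeR, adjusted p = 3.04e-05). KDM2A, a demethylase that binds unmethylated CpG, was at -0.17 and MBD1, a methyl-CpG binding protein, at -0.07, both lower. After the correction neither was called, with KDM2A at -0.02 and MBD1 at 0.03. CXXC4, which is encoded next to TET2, was higher at 0.56, and at 0.61 after the correction.

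In the methyl donor cycle, MAT2A had the largest fall of the listed genes. MAT2A, which makes S-adenosylmethionine, the methyl donor of every DNMT, was at 275, 272, 235, 242 and 229 CPM in knockout libraries 1 to 5, against 375, 385, 362, 397 and 349 CPM in WT libraries 1 to 5. The groups did not overlap, and the log2 fold change was -0.58 with a standard error of 0.06 (edgeR, adjusted p = 9.69e-06), or -0.60 after the length and GC correction. Of 11 tested genes of the methyl donor cycle, 2 were higher and 4 lower, with a median of -0.07, and 2 were higher and 3 lower after the correction. AHCYL1, an AHCY-like protein, was lower at -0.13, and AHCY, which clears the product of methylation, was higher at 0.14.

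For the TET enzymes the listed genes were those that make or use 2-oxoglutarate, and OGT, the glycosyltransferase that binds TET proteins. Of 10 tested, 2 were higher and 2 lower, with a median of -0.02, and 2 were higher and 3 lower after the length and GC correction. OGT was at 184, 184, 188, 195 and 179 CPM in knockout libraries 1 to 5, against 252, 251, 247, 235 and 244 CPM in WT libraries 1 to 5. It fell with no overlap by 0.40 on the log2 scale (edgeR, adjusted p = 1.39e-06) and was at -0.35 after the correction. IDH3B and IDH3G, subunits of the mitochondrial enzyme that makes 2-oxoglutarate, were higher at 0.21 and 0.24, and OGDH, which consumes it, was lower at -0.15. After the correction these were at 0.10, 0.11 and -0.08 and still called.

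**Figure D5:**
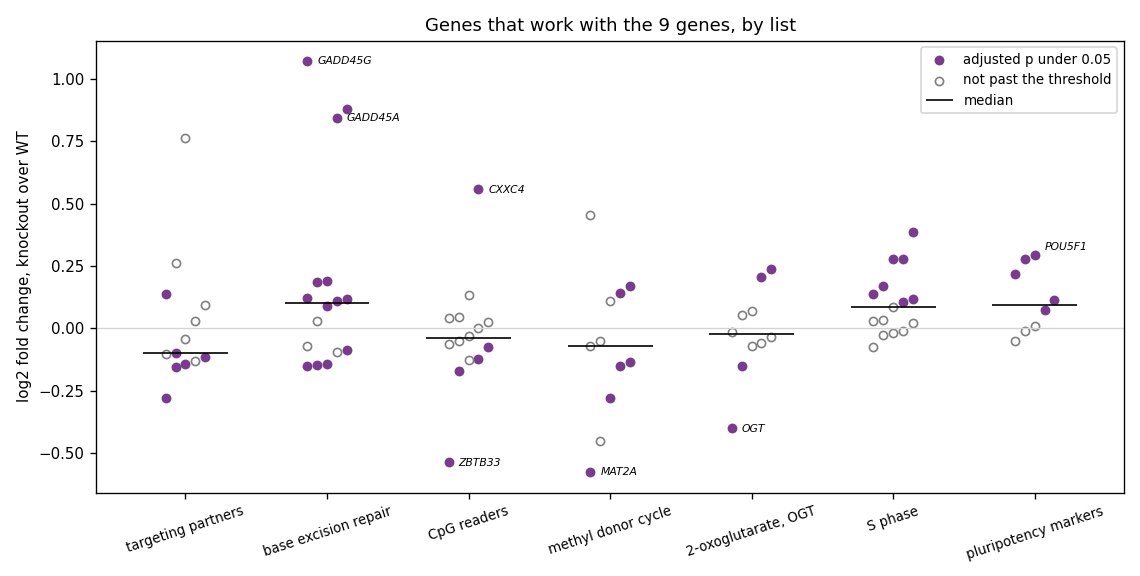
Log2 fold change (knockout over WT) of each tested gene in 7 lists of genes that work with the 9 members or describe the cells, filled where the adjusted p was under 0.05, with a black line at each list's median. MAT2A at -0.58 and ZBTB33 at -0.54 lie furthest below 0, and GADD45G at 1.07 lies furthest above it.

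Germline genes, many of which are known to be kept silent by promoter methylation, gave few values. Of 16 listed, 14 were in the table and 11 of these stayed below the count filter, at no more than 0.253 CPM in any library. Among these 11 the counts went both ways. Named after their values were seen, MAEL had 19 counts over the knockout libraries and 8 over the WT libraries, DDX4 had 8 and 1, and BRDT had 13 and 21. The 3 tested genes were all lower in knockout cells. DAZL, an RNA-binding protein of germ cells, was at 1.29 ± 0.268 CPM in knockout cells and 3.10 ± 0.383 CPM in WT cells (-1.26, edgeR, adjusted p = 4.42e-05). SOHLH2, a germ cell transcription factor, had 0 counts over the 5 knockout libraries and 79 over the 5 WT libraries, so the knockout group was at least 24.7-fold lower per total count, taking 3 counts as its upper limit. PIWIL2, a piRNA pathway protein, was at 0.603 ± 0.109 CPM in knockout cells and 0.897 ± 0.193 CPM in WT cells, with overlapping libraries (-0.56, edgeR, adjusted p = 0.0297), and it was not called after the length and GC correction (-0.48, adjusted p = 0.0522). SOHLH2 passed the filter only through the WT libraries. DNA methylation was not measured in these files.

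DNMT3B lies on a chromosome segment that pluripotent lines can gain, and the 28 tested genes within 1 Mb of it were therefore also looked at. Copy number of the segment was not tested. Of these 8 were higher and 6 lower, 14 in all and near the 46.0% of all tested genes, with a median log2 fold change of 0.04. ASXL1, a Polycomb-associated protein, was at -0.62, KIF3B, a kinesin motor, at -0.40, and PLAGL2, a zinc finger factor, at -0.25, all 3 lower and the smallest p-values of the window. After the length and GC correction they were at -0.46, -0.29 and -0.12 and still called.

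The genes whose profile over the 10 libraries was nearest to that of each changed member were taken as those with the smallest root mean square difference of centred log2 CPM, among 12210 genes of at least 5 CPM. For TET1 these were AFDN (0.0257) and KAT7 (0.0272). The nearest to DNMT3A were CERK (0.0207) and SELENON (0.0275), and to TET3 they were RIF1 (0.0308) and ARHGAP42 (0.0329). TDG had PIGX (0.0392) and TMEM179B (0.0397), of which PIGX itself was not called (log2 fold change 0.11, edgeR, adjusted p = 0.106). Whether any of these pairs share their control was not tested.

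The authors' deposited table gave TET1, DNMT3A and TET3 as lower and TDG as higher as well, with log2 fold changes of -0.34, -0.28, -0.21 and 0.15. Their adjusted p in the authors' deposited table was 3.43e-16, 7.22e-09, 0.00101 and 0.00789. The call column of the authors' deposited table reads NO for all 9 genes.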

How the data were processed

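PolyA RNA of 10 libraries, 5 knockout and 5 WT, was sequenced as read pairs with a NovaSeq-6000 instrument, per the labels. The authors deposited raw counts per gene with no normalization. Build hg38, DESeq2 and R 3.6.3 are named in the submitters' processing notes. How reads were aligned and assigned to genes, and whether strand was used, is not given in the labels used here. Reads of overlapping, antisense or near-identical genes (TDG and TET1 have annotated pseudogenes) may be shared. The authors' deposited table also holds a mean normalised signal, log2 fold changes, their standard errors, the quotient of both as a score, and p-values, and it was used for symbols and a side by side comparison only.

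Genes passing filterByExpr (19163) were tested for group with edgeR 4.0.16 (R 4.3.3; TMM scaling, glmQLFit, glmQLFTest). P-values were adjusted by Benjamini-Hochberg over all of them, with 0.05 as threshold. CPM use TMM-scaled library sizes, and log2 CPM a prior count of 2. Totals were 28615751 to 47319933 counts. Within groups the chi-square per degree of freedom between libraries was 3.81 to 28.6, more than sampling noise gives. Every library was counted as 1 replicate, though this spread does not show that the libraries came from separate cultures. Counts carry no molecular identifiers, so the floor of 3 counts covers counting error only. Transcript lengths and positions came from GENCODE 29 (GRCh38) and promoters from RefSeq (GRCh38.p14).

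Alternatives were DESeq2 1.42.0 (Wald test, and its size factors in edgeR), limma voom 3.58.1, 1 surrogate variable (sva 3.50.0), a replicate block, genes unfiltered or filtered at 1 CPM in 5 libraries, each library left out, both replicate 3 libraries left out, and a correction for transcript length and GC (natural splines, 5 degrees of freedom, as an offset; 98.9% of tested genes had both). The correction and the per kb levels using exon-union lengths were added after seeing the data. The fitting steps were tested on simulated data. The 9 genes and the lists were chosen with earlier results of these data known. Named beside them are KCNH2, up to 4 tested genes with the smallest p in each of 9 lists, the 2 nearest profiles of each called member and the 3 smallest p within 1 Mb of DNMT3B. Of the genes so chosen, 1 is left out of the text. Other genes named are said to be chosen after their values were seen.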

Additional observations from a re-analysis of the deposited data

Results flagged for a closer look

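In 84 groups of 5 libraries (each of the 8 tested genes, and named list genes, in each genotype) the highest and lowest library was set against the others by Dixon's criterion, which chance passes in about 1 of 20 groups. It was met 6 times. WT library 1 was low for DNMT3B at 738 CPM, where the other WT libraries had 805 to 824 CPM, and for TET3 at 25.98 CPM, where the others had 28.2 to 28.4 CPM. Knockout library 5 was high for TET2 at 4.87 CPM, where the other knockout libraries had 4.04 to 4.20 CPM. Knockout library 1 was high for QSER1 at 123 CPM, against 110.0 to 113 CPM in the other knockout libraries. Knockout library 4 was low for PCNA at 285 CPM, against 292 to 294 CPM in the others, and WT library 4 was low for NANOG at 66.1 CPM, against 72.5 to 73.6 CPM in the other WT libraries.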

How the results depend on the processing

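Of the 8 members, TET1 kept its direction and its side of the threshold in all 20 other fits, and DNMT3B and TET2 kept positive values with an adjusted p above 0.05 in all 20. The length and GC correction had the largest effect: members called were 2 in place of 4, and DNMT1 reversed, to 0.0915 with the transcript length and 0.0857 with the union of exons. DNMT3A and TET3 lost their calls under the transcript length (-0.10 and -0.01), TET3 also under the union of exons (-0.08), and TDG under both (0.09 and 0.10) and without both replicate 3 libraries (0.12). UHRF1 passed the test with 1 surrogate variable (-0.33) and the DESeq2 Wald test (-0.28). The causes were not tested. Leaving out each library in turn gave 4 to 5 members called, 7996 to 9054 of all genes (3846 to 4537 higher, 4150 to 4517 lower), 39 to 49 listed genes and 12 to 15 neighbours of DNMT3B. Replicate numbers did not pair the libraries in general, and only knockout library 3 correlated best with its own number. Same-numbered libraries deviated from their group means with correlations of -0.238 to 0.837, the highest being that of the replicate 3 libraries. What these 2 libraries share was not tested. The fit with the replicate block called 4 members and 8558 genes, and TET1 was at -0.35 (edgeR, adjusted p = 0.000163). At these depths DNMT3L, with at most 4 counts a library, could not be compared, and TET2 had the second widest standard error of the 8.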

Other observations

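CDKN1A, the p53 target that holds the cell cycle, was looked at after its values had been seen. It was at 26.2, 38.4, 101, 85.3 and 59.7 CPM in knockout libraries 1 to 5, against 12.8 to 19.6 CPM in WT libraries. Knockout libraries 3 and 4, the highest in CDKN1A and in GADD45A, were the lowest in UHRF1 (27.7 and 27.5 CPM) and in DNMT3B (742 and 756 CPM), and knockout libraries 1 and 2 were the lowest in CDKN1A and the highest in both. GADD45B, another stress-induced gene of the repair list, had 9.91, 14.4, 41.1, 31.2 and 26.004 CPM in knockout libraries 1 to 5, against 11.7 to 16.2 CPM in WT libraries, and was also named after its values were seen. TET1, at 76.6, 72.3, 72.8, 74.1 and 68.6 CPM in the same knockout libraries, did not follow this order. DNMT3A was also highest in knockout libraries 1 and 2 (131 and 136 CPM) and lowest in knockout library 3 (115 CPM), with 119 and 118 CPM in knockout libraries 4 and 5. SOX2, GINS2 and RRM2 were also highest in knockout libraries 1 and 2 and lowest in knockout libraries 3 and 4, so the order was not particular to UHRF1 and DNMT3B. With 5 libraries and an order noticed in the data, no test of the relation was made.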
